A study of Mus musculus with 2 samples.

Results

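Csf2, the gene of the cytokine GM-CSF, and Il2, the gene of the cytokine interleukin-2, were followed cell by cell in innate lymphoid cells (ILCs) of the mouse gut. They are 2 of the 17238 genes in the authors' table of cells. They were described over 5490 cells of the small intestine and 7549 cells of the colon, and over the cells with at least 1 UMI of Ncr1, Gata3, Klrd1, Cd3e or Ccr6. A UMI, or unique molecular identifier, marks 1 captured RNA molecule. Each tissue was 1 library of sorted IL7ra+ ILCs from C57BL/6 mice aged 8 weeks, and the design text says that each was a pool of 8 mice. The titles of both libraries say fed, and no agent or mutation is named for either. With 1 library per tissue there is no replicate and no test, and what differs between tissues cannot be told apart from what differs between 2 libraries.

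GM-CSF acts on myeloid cells through a receptor made of Csf2ra and the common beta chain Csf2rb, and in the mouse gut ILC3s are known as a source of it. Interleukin-2 acts through Il2ra, Il2rb and the common gamma chain Il2rg, and it supports regulatory T cells, which in the small intestine have been reported to depend on IL-2 from ILC3s. Transcription of both genes in T cells depends on factors of the NFAT and AP-1 families. Of the markers, Ncr1 encodes the receptor NKp46 of NCR+ ILC3s, ILC1s and NK cells, Gata3 a factor that is high in ILC2s and present in other ILCs and T cells, Klrd1 the receptor CD94 of NK cells and some ILC1s, Cd3e a chain of the T cell receptor complex and Ccr6 a chemokine receptor of LTi-type ILC3s (lymphoid tissue inducer).

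On mm10 (GENCODE vM21), Csf2 (ENSMUSG00000018916) lies at chr11:54247271-54249667 and Il2 (ENSMUSG00000027720) at chr3:37120523-37125959, each on the minus strand. RefSeq gave 1 promoter window for each of the 2 genes (GRCm38.p6). From each window 240 bases before its start are shown, because the same factors drive both genes in T cells and the 2 were compared here for co-detection. The bases between each stretch and its RefSeq start (54249899 for Csf2 and 37125954 for Il2) were neither shown nor searched. Capitals mark matches to the NFAT core GGAAA on either strand (TTTCC on the minus strand), the TATA box TATAAA and the GATA motif AGATAA.
Csf2, chr11:54249910-54250149, minus strand: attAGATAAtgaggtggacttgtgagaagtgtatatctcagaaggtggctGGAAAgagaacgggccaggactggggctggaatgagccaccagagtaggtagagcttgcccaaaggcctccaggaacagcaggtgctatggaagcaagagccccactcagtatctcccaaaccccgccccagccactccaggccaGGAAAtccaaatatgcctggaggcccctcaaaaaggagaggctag
Il2, chr3:37125965-37126204, minus strand: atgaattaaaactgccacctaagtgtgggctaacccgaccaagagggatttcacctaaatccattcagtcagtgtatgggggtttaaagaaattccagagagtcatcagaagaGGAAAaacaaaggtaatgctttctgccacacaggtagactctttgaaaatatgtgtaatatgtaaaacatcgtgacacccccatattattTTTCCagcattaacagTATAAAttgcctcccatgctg
The RefSeq start of Csf2 lies 232 bases upstream of the GENCODE start, so the Csf2 window covers the bases 243 to 482 upstream of the GENCODE start. The Il2 window begins 6 bases upstream of the GENCODE start. Each window held 2 matches to GGAAA, and 54.1% of the 32851 windows of this length held at least 1. The Il2 window held 1 match to TATAAA (12.1% of windows) and the Csf2 window 1 match to AGATAA (9.74%). Neither held the AP-1 motif TGANTCA (6.58% of windows) or the RUNX motif TGTGGT (13.6%). A match is a description of these letters only.

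The cells held 15080081 UMIs in the small intestine against 22332691 in the colon, with medians of 2579 and 2600 UMIs per cell. Levels below are the UMIs of a gene per 1000000 UMIs of the same cells (CPM), and every interval is a 95% interval for counting error only. For a median gene (8116 genes) the small intestine over colon log2 ratio was 0.22. The Cd3e+ cells, 429 in the small intestine against 1384 in the colon, were in a sort labelled as ILC. The 10 T cell markers, all detected, summed to 1830 and 2151 CPM, and the 6 ILC markers to 4069 and 3499 CPM. A total of 60 barcodes were cells in both libraries.

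Csf2 was higher in the small intestine and Il2 in the colon. Csf2 had 7287 UMIs in 1723 small intestine cells, a level of 483 CPM (472 to 494), against 6430 UMIs in 2099 colon cells, a level of 288 CPM (281 to 295). The ratio was 1.68 (1.62 to 1.74). Il2 had 737 UMIs in 545 small intestine cells, or 48.9 CPM (45.4 to 52.5), against 1637 UMIs in 1100 colon cells, or 73.3 CPM (69.8 to 76.9). The ratio was 0.667 (0.61 to 0.728), or 1.5-fold higher in the colon. Relative to the median gene, the log2 ratios were 0.53 for Csf2 and -0.80 for Il2. Of these 2 genes, 0 differed by 2-fold or more over all cells, against 8.92% of 11960 genes at least 2-fold higher and 5.42% at least 2-fold lower in the small intestine. With each cell thinned to 1000 UMIs, 20.1% of small intestine cells and 15.7% of colon cells had a Csf2 UMI, against 31.4% and 27.8% unthinned. The thinned shares for Il2 were 3.84% and 6.19%, against 9.93% and 14.6% unthinned.

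Free RNA was estimated as a small part of either level over all cells, and as a larger part where a level was low. It was estimated at 5.36% of the UMIs of small intestine cells and 8.25% of those of colon cells. On the CPM scale it would supply 16.3 and 17.8 of the Csf2 level and 3.74 and 8.18 of the Il2 level, which is 11.2% of Il2 in the colon. Cells with at least 5 UMIs of B cell markers, which are not a known main source of either cytokine, served as a reference. There were 10 in the small intestine (median 17078 UMIs) against 6 in the colon (median 13632 UMIs). They held 0 Csf2 UMIs in the small intestine and 6 in 2 of the colon cells, with 5 in 1 cell, and 0 Il2 UMIs in either tissue. With so few cells, 0 of 10 allows a share of up to 30.0%, so this sets no narrow limit on the share of cells with a UMI.

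Across the marker groups Csf2 was high in Ncr1+ and Gata3+ cells of the small intestine and in Gata3+ cells of the colon, and low in Ccr6+ cells of both. Small intestine Ncr1+ cells had 601 CPM (579 to 623, 1605 cells) and Gata3+ cells 589 CPM (568 to 610, 1643 cells), with overlapping intervals. Colon Gata3+ cells came next at 387 CPM (377 to 398, 4218 cells). Small intestine Klrd1+ cells had 334 CPM (284 to 391, 172 cells), but 1 cell gave 58 of their 157 UMIs and the level without it was 212 CPM, still above that of colon Klrd1+ cells. Small intestine Cd3e+ cells had 259 CPM (230.2 to 289). Colon Ncr1+ cells had 195 CPM (177 to 214, 665 cells), Klrd1+ cells 161 CPM (142 to 182, 482 cells) and Cd3e+ cells 116 CPM (106 to 127). Small intestine Ccr6+ cells had 131 CPM (113 to 152, 541 cells) and colon Ccr6+ cells 88.8 CPM (74.9 to 104, 357 cells), the lowest of the 10 groups. Colon Klrd1+ over small intestine Ccr6+ cells had a ratio of 1.23 (1.01 to 1.49). In the order of the 10 levels, the intervals of neighbours were apart at 3 places. These lay between small intestine and colon Gata3+ cells, between small intestine Cd3e+ and colon Ncr1+ cells, and between colon Cd3e+ and Ccr6+ cells. Without their top cell, small intestine Klrd1+ cells (212 CPM) would come between small intestine Cd3e+ and colon Ncr1+ cells, within the Ncr1+ interval. The gap between colon Cd3e+ and Ccr6+ cells was narrow, 105.9 against 104.5 CPM, and these groups share 48 cells. Their thinned shares of cells, 6.43% (5.20 to 7.85) and 4.48% (2.58 to 7.18), had overlapping intervals. The unthinned shares, 14.2% and 17.9%, ran the other way.

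**Figure D1:**
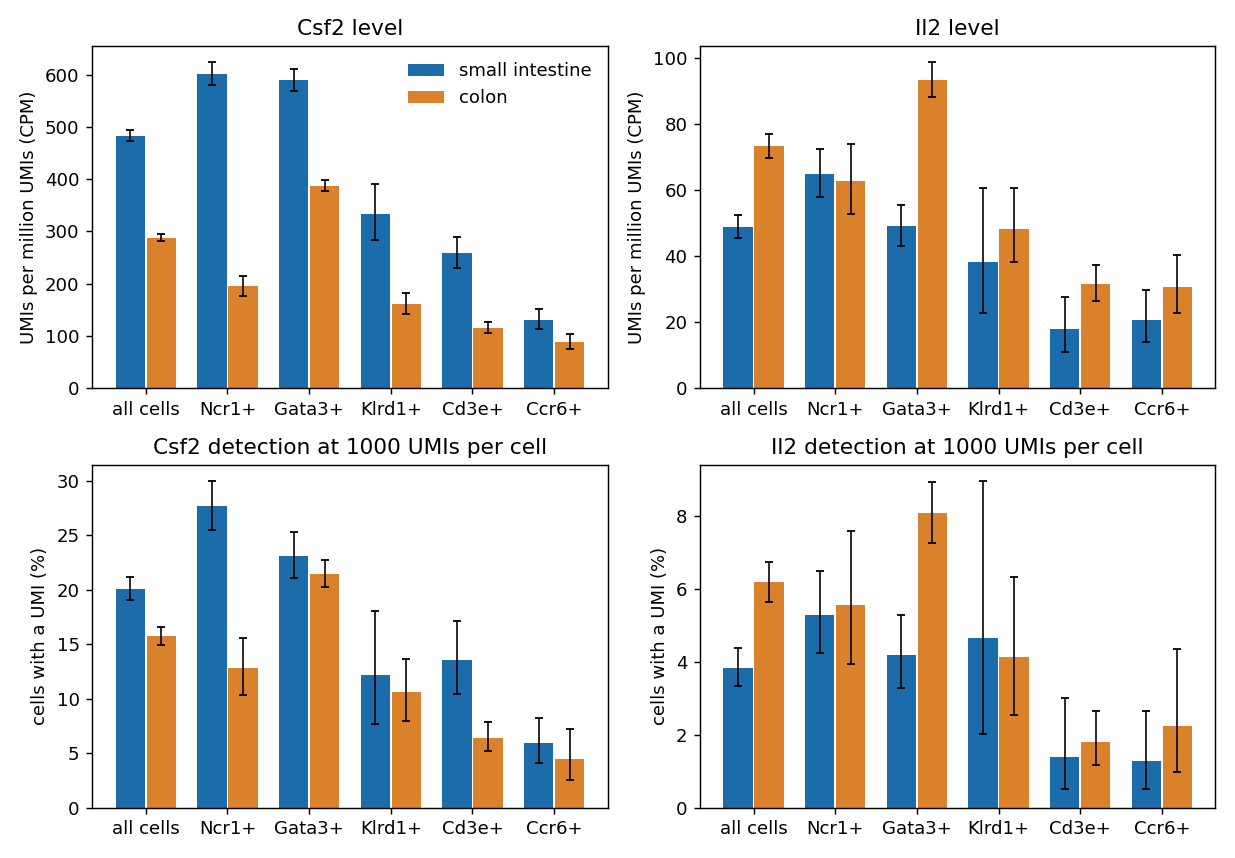
Levels of Csf2 and Il2 (top, CPM) and the percent of cells with a UMI after thinning to 1000 UMIs per cell (bottom), over all cells and in the 5 overlapping marker groups, small intestine (blue) left of colon (orange). Bars are 1 library each and whiskers 95% counting intervals. Csf2 is higher in the small intestine in each of the 5 groups, from 131 against 88.8 CPM in Ccr6+ cells to 601 against 195 CPM in Ncr1+ cells, while Il2 is highest in colon Gata3+ cells at 93.5 CPM.

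Csf2 was higher in the small intestine in each of the 5 groups, most in Ncr1+ cells. The small intestine over colon ratio was 3.08 (2.78 to 3.42) in Ncr1+ cells, 2.23 (1.93 to 2.58) in Cd3e+ cells, 2.07 (1.69 to 2.54) in Klrd1+ cells, 1.52 (1.45 to 1.59) in Gata3+ cells and 1.48 (1.18 to 1.85) in Ccr6+ cells. By share of cells at 1000 UMIs the gap was again wide in Ncr1+ cells, 27.7% (25.5 to 29.9) against 12.8% (10.3 to 15.6). In Gata3+ cells it was narrow, 23.1% (21.1 to 25.2) against 21.4% (20.2 to 22.7), so that the difference in level there lay more in UMIs per cell than in the share of cells. In Ccr6+ cells the unthinned shares, 9.61% and 17.9%, ran against the levels, and the median depths were 2366 and 3443 UMIs. Thinned, the Ccr6+ shares were 5.91% (4.08 to 8.25) and 4.48% (2.58 to 7.18), with overlapping intervals. In Klrd1+ cells the thinned shares, 12.2% (7.72 to 18.1) and 10.6% (7.98 to 13.7), overlapped too. Without the top cell of each tissue, the Klrd1+ levels were 212 and 155 CPM.

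Il2 had another order, led by colon Gata3+ cells. These had 93.5 CPM (88.4 to 98.8), apart from all other groups, and 8.08% of them (7.28 to 8.95) had an Il2 UMI at 1000 UMIs. Small intestine Ncr1+ cells had 64.9 CPM (57.9 to 72.6), colon Ncr1+ cells 62.8 CPM (52.8 to 74.1) and small intestine Gata3+ cells 49.1 CPM (43.2 to 55.6). The largest cell of the small intestine Ncr1+ group gave 16 of its 308 Il2 UMIs. Klrd1+ cells had 38.3 CPM (22.7 to 60.6) in the small intestine against 48.4 CPM (38.1 to 60.6) in the colon. Ccr6+ cells had 20.8 CPM (13.9 to 29.9) and 30.6 CPM (22.7 to 40.4), and Cd3e+ cells 18.0 CPM (11.2 to 27.6) and 31.5 CPM (26.4 to 37.4), small intestine first. Below the top group the interval of each overlapped that of the next. Of neighbours from different libraries below it, colon Ncr1+ over small intestine Gata3+ cells had a ratio of 1.28 (1.03 to 1.58), while the ratios of the other pairs had intervals that include 1. The small intestine over colon ratio of Il2 was 0.526 (0.457 to 0.603) in Gata3+ cells. In Ncr1+ cells it was 1.03, with an interval from 0.844 to 1.27 that includes 1.

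Set against marker-negative cells of the same library, Gata3+ cells of the colon stood out for both cytokines. Csf2 was 2.86-fold higher in colon Gata3+ than Gata3- cells (387 against 135 CPM, interval 2.69 to 3.05) and Il2 2.20-fold (93.5 against 42.4 CPM, 1.96 to 2.48). In the small intestine the Gata3+ over Gata3- ratio was 1.37 (1.31 to 1.44) for Csf2 and 1.01 (0.862 to 1.18) for Il2. Ncr1+ over Ncr1- cells ran in opposite directions for Csf2, with ratios of 1.40 (1.34 to 1.47) in the small intestine against 0.654 (0.592 to 0.721) in the colon, and of 1.56 (1.35 to 1.82) and 0.843 (0.704 to 1.0) for Il2. The Ncr1- cells of the colon include most of its Gata3+ cells. Ccr6+ cells were low in both tissues, with Csf2 ratios of 0.253 (0.217 to 0.293) and 0.292 (0.246 to 0.345) and Il2 ratios of 0.403 (0.268 to 0.583) and 0.399 (0.295 to 0.529). Cd3e+ cells were low too, at 0.515 and 0.354 for Csf2 and 0.351 and 0.380 for Il2.

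Most cytokine UMIs of the colon lay in Gata3+ cells, whereas those of the small intestine were spread. Colon Gata3+ cells held 81.4% of the Csf2 UMIs and 77.2% of the Il2 UMIs, and 60.5% of all UMIs. Small intestine Gata3+ cells held 40.9% of Csf2 and 33.8% of Il2 UMIs, with 33.6% of all UMIs, and Ncr1+ cells 39.1% and 41.8%, with 31.5% of all UMIs. Cells with none of the 5 markers held 25.5% of Csf2 and 29.4% of Il2 UMIs in the small intestine, and 12.4% and 14.2% in the colon, below their 31.0% and 18.3% of all UMIs. These cells are not without lineage: a marker can be missed at this depth, and their median UMI counts were 2320 and 2400.

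Because the groups overlap, cells were also divided by the exact combination of markers. Cells with a UMI of Ncr1 and of no other of the 5 had 644 CPM of Csf2 in the small intestine (616 to 673, 1102 cells) against 157 CPM in the colon (129 to 189, 268 cells), a ratio of 4.10 (3.39 to 5.0). Cells with Gata3 alone had 645 CPM (618 to 673, 1092 cells) against 438 CPM (425 to 451, 3476 cells). For Il2, Gata3-alone cells had 52.9 CPM (45.4 to 61.3) in the small intestine against 104 CPM (97.6 to 110.1) in the colon, while Ncr1-alone cells had 68.8 CPM (59.9 to 78.6) and 77.2 CPM (58.2 to 101). Cells with Ccr6 alone had 64.9 CPM of Csf2 (49.4 to 83.7) and 24.5 CPM (13.4 to 41.1), small intestine first, or 48.6 and 6.76 CPM with the estimated free RNA taken off. The 31 small intestine cells with Klrd1 alone had 1008 CPM of Csf2, but 58 of 75 UMIs came from 1 cell, and the level without it was 238 CPM.

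**Figure D2:**
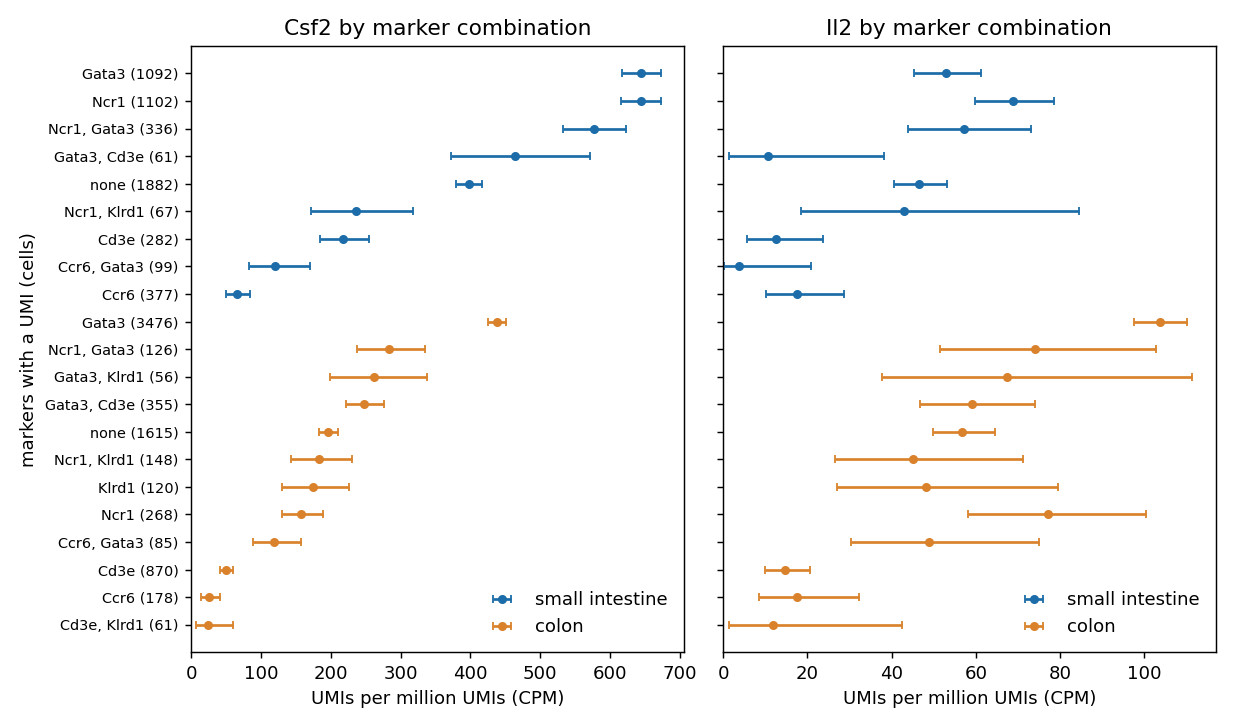
Csf2 (left) and Il2 (right) in CPM for each combination of the 5 markers with at least 50 cells, small intestine (blue) above colon (orange), with the number of cells in parentheses and 95% counting intervals. Small intestine cells with Gata3 alone and Ncr1 alone sit together at 645 and 644 CPM of Csf2, and colon cells with Gata3 alone have the highest Il2 at 104 CPM.

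Splits by a further gene were added after the data had been seen. In Gata3+ cells Csf2 was higher with an Il1rl1 UMI than without one in both tissues. The Il2 intervals of the 2 sides overlapped in both tissues, narrowly in the colon, and such an overlap does not show equal levels. Il1rl1 encodes ST2, the receptor for interleukin-33 on ILC2s. Gata3+ cells with an Il1rl1 UMI had 1227 CPM of Csf2 in the small intestine (1114 to 1349, 93 cells) against 499 CPM in the colon (478 to 521, 1146 cells). Without its top cell the small intestine level was 1097 CPM. The same cells had 34.2 CPM of Il2 in the small intestine (17.7 to 59.7) against 102 CPM in the colon (92.7 to 112), so the ratios were 2.46 (2.21 to 2.73) for Csf2 and 0.335 (0.172 to 0.591) for Il2. Only 12 Il2 UMIs lie behind the small intestine value, which was 25.9 CPM without its top cell. Gata3+ Il1rl1- cells had 541 CPM (520.3 to 562) and 337 CPM (326 to 349) of Csf2, and 50.2 CPM (44.1 to 57.1) and 89.6 CPM (83.6 to 95.9) of Il2.

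Among Cd3e+ cells, those without a UMI of Trdc, the gamma-delta T cell receptor constant gene, had the higher levels of both cytokines, though the Il2 intervals of the small intestine overlapped. Cd3e+ Trdc+ cells had 193 CPM of Csf2 in the small intestine (309 cells) against 66.8 CPM in the colon (1092 cells). Cd3e+ Trdc- cells had 409 CPM (120 cells) and 291 CPM (292 cells). For Il2 the Trdc+ cells had 16.1 and 18.8 CPM and the Trdc- cells 22.5 and 76.8 CPM, or 12.3 and 10.6 CPM against 18.8 and 68.6 CPM with the estimated free RNA taken off. Ccr6+ Cd4+ cells, a subset of LTi-type cells, had 76.2 CPM of Csf2 in the small intestine, with 12 of 15 UMIs in 1 cell, and 85.4 CPM in the colon. Il2 had 0 UMIs in the 73 such cells of the small intestine, which allows a share of cells with a UMI of up to 4.11% (3 counts) and does not limit the share that express the gene, and 25.2 CPM in the 137 of the colon. Klrd1+ Eomes+ cells, which carry 2 NK markers, numbered 2 and 10 and held 0 UMIs of either cytokine. At 3 counts this limits Csf2 only to 470 and 94.6 CPM, so it does not show that such cells lack either transcript.

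Csf2-positive cells often held several UMIs of it, whereas most Il2-positive cells held 1 Il2 UMI. Cells with 10 or more Csf2 UMIs made up 3.21% of small intestine cells (176 cells) and held 39.9% of its Csf2 UMIs, against 1.52% of colon cells (115 cells) with 24.7%. The highest cell had 75 UMIs in the small intestine, 2.14% of all UMIs in that cell, and 39 in the colon. Cells with a single Csf2 UMI were 37.1% and 43.9% of the positive cells. For Il2 they were 80.0% and 73.4%, and cells with 10 or more numbered 3 and 4, with maxima of 16 and 13 UMIs. The 10 highest cells held 6.13% and 4.04% of the Csf2 UMIs and 10.2% and 5.68% of the Il2 UMIs.

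**Figure D3:**
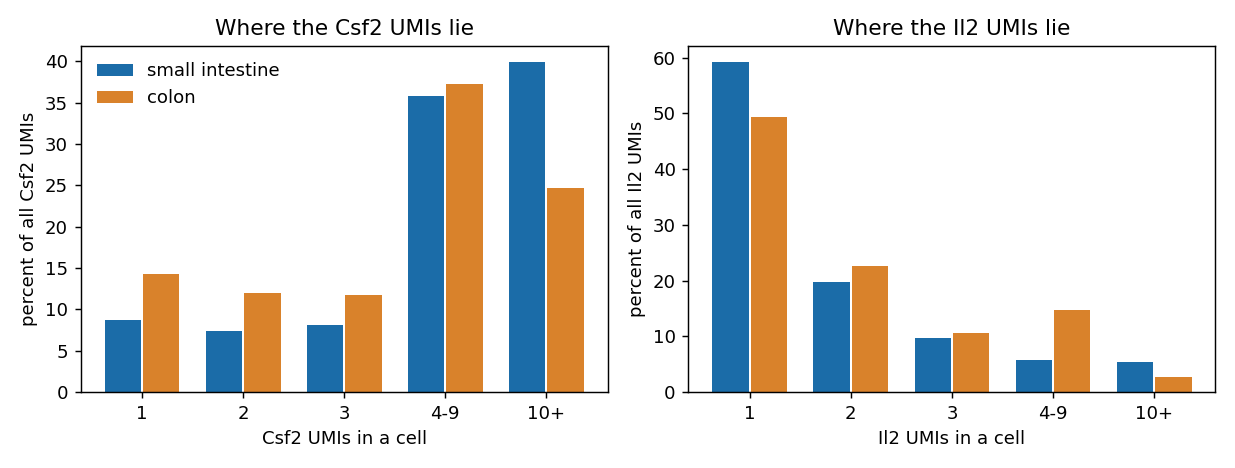
Percent of all Csf2 (left) and Il2 (right) UMIs that lie in cells with 1, 2, 3, 4 to 9, or 10 and more UMIs of the gene, small intestine (blue) left of colon (orange). Cells with 10 or more UMIs hold 39.9% and 24.7% of the Csf2 UMIs, and cells with 1 UMI hold 59.2% and 49.3% of the Il2 UMIs.

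Il2 was detected more often in cells that also had Csf2. In the small intestine 230 cells had both, and an Il2 UMI was present in 13.3% of Csf2+ cells (11.8 to 15.0) against 8.36% of Csf2- cells (7.50 to 9.29), a ratio of 1.60 (1.36 to 1.87). In the colon 476 cells had both, and the shares were 22.7% (20.9 to 24.5) and 11.4% (10.6 to 12.3), a ratio of 1.98 (1.78 to 2.21). Csf2+ cells also held more UMIs, with medians of 2898 against 2437 in the small intestine and 2825 against 2514 in the colon. At 1000 UMIs per cell the ratio was 1.30 (0.958 to 1.77) in the small intestine, an interval that includes 1, and 1.83 (1.5 to 2.24) in the colon. With cells divided into 10 equal bins by depth, the share was higher in Csf2+ cells in 8 bins of the small intestine and 9 bins of the colon.

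The ratio was also taken within marker groups. Within small intestine Ncr1+ cells the ratio was 1.25 (0.981 to 1.59), and 1.09 (0.692 to 1.71) thinned. Within small intestine Gata3+ cells it was 1.37 (1.05 to 1.79), and 1.0 (0.581 to 1.73) thinned. Within colon Gata3+ cells it was 1.5 (1.32 to 1.69), and 1.40 (1.11 to 1.75) thinned. In colon Cd3e+ cells 23.9% of Csf2+ cells had Il2, against 4.38% of Csf2- cells, a ratio of 5.45 (3.78 to 7.84). The thinned ratio there, 2.77 (0.972 to 7.90), rested on 4 cells with both. Within colon Ncr1+ cells the ratio was 1.73 (1.19 to 2.52), and 0.827 (0.301 to 2.28) thinned, again with 4 cells with both. Within colon Klrd1+ cells it was 2.63 (1.62 to 4.26), and 2.11 (0.735 to 6.08) thinned. Within Ccr6+ cells it was 3.13 (1.30 to 7.55) in the small intestine, on 6 cells with both, against 4.29 (2.24 to 8.22) in the colon, where Csf2+ cells had a median of 7188.5 UMIs against 3182 in Csf2- cells. Among colon Cd3e+ cells Trdc was 720.0 CPM in Csf2+ and 1651 CPM in Csf2- cells.

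In the colon the share of cells with Il2 was higher at each higher class of Csf2 UMIs. It was 11.4% at 0, 19.8% at 1, 23.0% at 2 to 3, 25.8% at 4 to 9 and 33.0% (24.6 to 42.4) at 10 or more, and 4.83%, 8.36%, 8.96%, 11.7% and 17.4% (11 to 25.6) after thinning of Il2. The classes take all colon cells together. Gata3+ cells were 75.4% of the Csf2+ and 74.9% of the Il2+ cells of the colon, against 55.9% of all its cells, and their part was not tested. In the small intestine the same classes had 8.36%, 12.7%, 12.6%, 13.9% and 16.5% (11.3 to 22.8). Thinned, those shares were 3.48%, 5.63%, 3.21%, 4.10% and 6.25% (3.16 to 10.9), with intervals that overlap throughout. Csf2+ cells held 46.5% of the Il2 UMIs of the small intestine and 47.5% of those of the colon, so the larger part of Il2 UMIs in each tissue was in cells with no Csf2 UMI.

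**Figure D4:**
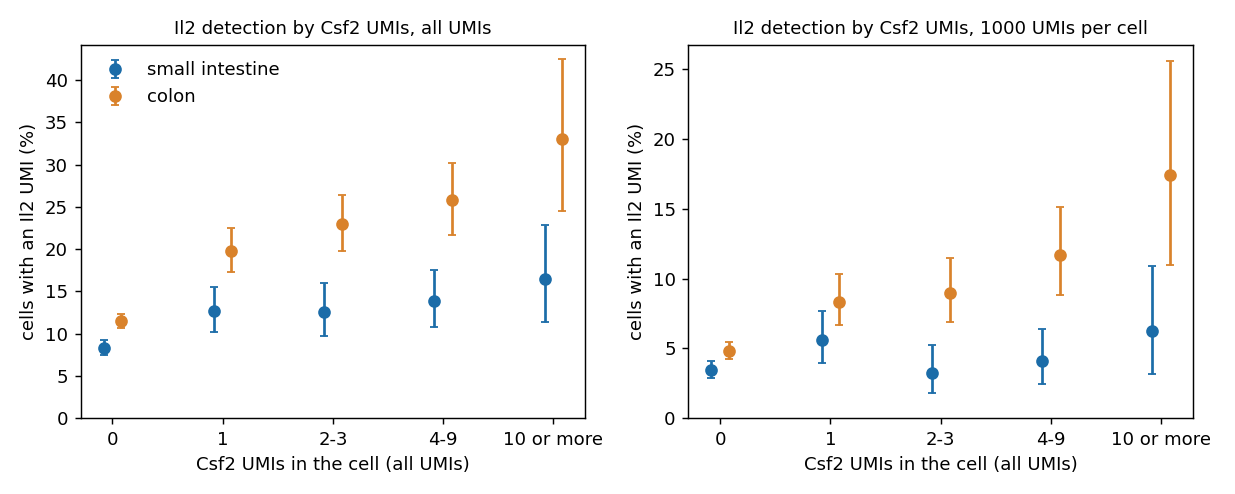
Percent of cells with an Il2 UMI by the number of Csf2 UMIs in the cell, at full depth (left) and with Il2 read after thinning to 1000 UMIs per cell (right), small intestine (blue) left of colon (orange), with 95% intervals. The thinned colon shares run from 4.83% to 17.4%, and the thinned small intestine shares stay between 3.21% and 6.25%.

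Genes that went with Csf2 were compared between Csf2+ and Csf2- cells of the same marker group and library, in 7 groups with at least 100 positive cells. Cxcl1, a neutrophil chemokine gene, was among the 10 named genes in 6 of the 7, Ccl1, a chemokine gene of ILC2s, and Hs3st1, a sulfotransferase gene used as an ILC2 marker, in 4, and the ILC2 cytokine genes Areg and Il5 in 3. Groups of the same library share cells, so these counts do not come from separate sets of cells. Of the 197 Csf2+ cells among colon Cd3e+ cells, 116 were also Gata3+. In Cd3e+ cells the Cxcl1 value rested on 3 Csf2+ cells in the small intestine, with 43.8% of the UMIs in 1 of them, against 7 in the colon, with 66.0% in 1, and without that cell the colon level was 18.1 CPM in Csf2+ against 9.30 CPM in Csf2- cells. In small intestine Gata3+ cells Ccl1 had 440.1 CPM in Csf2+ and 67.3 CPM in Csf2- cells, a ratio of 6.54 (5.6 to 7.67). Il13 had 77.1 and 19.5 CPM, a ratio of 3.96 (2.91 to 5.45), Areg 660.2 and 255 CPM (2.59, 2.37 to 2.83) and Il5 89.7 and 35.5 CPM (2.53, 1.98 to 3.24). Il6, a ratio of 7.52, rested on 15 positive cells, with 45.5% of its UMIs in 1 of them. Of the ILC2 cytokine list, 4 of the 7 members measured reached 2-fold higher and 0 reached 2-fold lower, with a median log2 ratio of 1.34 against -0.10 over all genes. The background was 0.792% of 9212 genes higher and 3.26% lower. The ILC2 marker Il1rl1 (40.2 against 16.4 CPM) moved with this split, and its part in the result was not tested.

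In colon Gata3+ cells Il5, Il13 and Areg were also higher in Csf2+ cells, each by less than 2-fold. Il5 had 299.6 CPM in Csf2+ and 187 CPM in Csf2- cells (ratio 1.60, 1.49 to 1.72), Il13 78.3 and 50.8 CPM (1.54, 1.34 to 1.77), and Areg 573 and 348 CPM (1.65, 1.56 to 1.73). Of the list, 1 of 7 measured members was at least 2-fold higher and 0 lower, with a median log2 ratio of 0.63 against -0.08 over all genes, beside a background of 0.518% higher and 1.89% lower among 10424 genes. Trdc had 67.0 and 171 CPM (0.392) and Il1rl1 153 and 104 CPM (1.47) in this split, and their part was not tested. Hdc, the histamine-forming decarboxylase gene, had 15.7 and 6.31 CPM (2.49, 1.74 to 3.6). Il3, another ligand of the common beta chain, whose gene lies 15635 bases from Csf2, had 25 UMIs in Csf2+ and 2 in Csf2- cells, a ratio of 17.7 (4.41 to 154), with 32% of the 25 in 1 of 8 cells. The genes named by rank were headed by Car1, Guca2a, Lypd8, Fabp2 and Cyp2c55, which are epithelial genes. All 5 had most of their UMIs in the same cell, which held 468 of them among 8918 UMIs and 1 Csf2 UMI.

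The same partners were read in the smaller groups. In colon Ncr1+ cells Ccl1 had 284 CPM in Csf2+ and 54.2 CPM in Csf2- cells (5.25-fold) and Hs3st1 262 and 82.9 CPM (3.15-fold), beside a background of 1.51% of genes at least 2-fold higher and 3.42% lower. Il1rl1 had 40.0 and 19.6 CPM there (2.04, 1.18 to 3.54), and its part was not tested. In colon Cd3e+ cells Ccl1 had 239 and 42.9 CPM (5.57-fold) and Hs3st1 500.4 and 139 CPM (3.6-fold), beside 2.71% and 4.81%. Il1rl1 had 73.6 and 24.0 CPM and Trdc 720.0 and 1651 CPM there. Colon Cd3e+ cells with a Gata3 UMI had 223 CPM of Csf2, and those without one 48.6 CPM. The part of Il1rl1, Trdc and Gata3 was not tested. In small intestine Cd3e+ cells Hs3st1 had 337 and 65.7 CPM (5.12-fold) and Ccl1 240.4 and 11.7 CPM, with 44% of its UMIs in 1 cell, beside 1.91% and 6.48%. Gata3 had 231 and 93.9 CPM (2.46, 1.76 to 3.42) and Trdc 1071 and 1631 CPM there, and their part was not tested. In colon Klrd1+ cells Hs3st1 had 305 and 131 CPM (2.33-fold), beside 1.83% and 4.65%. Il1rl1 there had 59.6 and 19.4 CPM, and the T cell genes Trdc 82.5 and 371 CPM and Cd3d 45.8 and 171 CPM, and their part was not tested. Cxcl1 in colon Klrd1+ cells had 38.9 and 2.65 CPM, with 70.6% of its UMIs in 1 cell.

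In small intestine Ncr1+ cells, Csf2+ cells had lower levels of Ccl5, Gzma and Klre1, genes of cytotoxic lymphocytes. Ccl5 had 181 CPM in Csf2+ and 507 CPM in Csf2- cells (0.356, 0.318 to 0.399), and Gzma, a granzyme gene, 14.4 and 62.7 CPM (0.229, 0.152 to 0.337), with 51.9% of its UMIs on the Csf2- side in 1 cell. Klre1, an NK receptor gene, had 5.84 and 20.3 CPM (0.288, 0.144 to 0.538). Ifng, the main cytokine gene of ILC1s and NK cells, ran the other way, at 133 and 104 CPM (1.28, 1.08 to 1.52). Of the list of ILC1 and NK cytokines, 0 of the 10 measured reached 2-fold higher and 2 reached 2-fold lower, beside a background of 0.804% and 1.43% of 9083 genes. The ILC3 cytokine gene Il22 had 4406 CPM in Csf2+ and 3526 CPM in Csf2- cells (1.25, 1.21 to 1.29), while Il17f, another, had 10.8 and 29.4 CPM (0.367, 0.221 to 0.588). Il17a ran the other way from Il17f, with 20 UMIs in Csf2+ and 3 in Csf2- cells (7.54, 2.24 to 39.6), and 65% of the 20 were in 1 of 4 cells. Of the 8 measured ILC3 cytokine genes, 1 was at least 2-fold higher and 1 at least 2-fold lower. Among Gata3+ cells Il22 ran the other way, at 1926 and 2840 CPM in the small intestine (0.678, 0.653 to 0.704) and 722 and 1271 CPM in the colon (0.568, 0.548 to 0.589).

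Lists for pathways that drive both genes in T cells were read in Ncr1+ and Gata3+ cells of the small intestine and Gata3+ cells of the colon. The share of all genes at least 2-fold higher in Csf2+ cells was 0.804%, 0.792% and 0.518% and at least 2-fold lower 1.43%, 3.26% and 1.89%, so counts near 0 in lists of this size do not set them apart from other genes. Of the NF-kB list, 0 of 16 measured members were past 2-fold in either direction in any of the 3. Of the calcium, NFAT and AP-1 list, 0 of 19, 0 of 18 and 0 of 20 were at least 2-fold higher, and 0, 2 and 0 at least 2-fold lower, in the same order. Smaller differences ran in both directions. The level of Fos, an AP-1 gene, was lower in Csf2+ cells of the 3 groups, with ratios of 0.903 (0.858 to 0.95), 0.746 (0.712 to 0.782) and 0.952 (0.926 to 0.978). By thinned share of cells with a Fos UMI only small intestine Gata3+ cells were lower, 61.0% against 67.2%. The shares were 59.4% and 59.1% in small intestine Ncr1+ cells and 65.1% and 64.8% in colon Gata3+ cells. The lower level did not hold in the other groups. Fos was higher in Csf2+ cells of the colon Cd3e+ (1.36, 1.27 to 1.45) and Klrd1+ groups (1.33, 1.19 to 1.49). Its intervals included 1 in small intestine Cd3e+ (1.08, 0.946 to 1.23) and colon Ncr1+ cells (1.02, 0.935 to 1.11). Nr4a1, an early gene of antigen receptor and calcium signals, had 1586 and 1200.2 CPM in small intestine Ncr1+ cells (1.32, 1.26 to 1.39) and 944 and 659 CPM in colon Gata3+ cells (1.43, 1.38 to 1.49). Nfatc1 had 97.9 and 62.0 CPM in small intestine Ncr1+ cells (1.58, 1.28 to 1.95). Nr4a1 is given here for 2 of the 3 groups and Nfatc1 for 1, so these values do not describe the rest of the 3. Il2ra, the high-affinity chain of the IL-2 receptor, was higher in Csf2+ cells of these 3 groups by ratios of 1.31, 1.29 and 1.30.

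Genes that went with Il2 were compared between Il2+ and Il2- cells of 3 groups, and no gene was named in more than 1 of them. In colon Gata3+ cells, Il2+ cells had less Il5 than Il2- cells, at 187 against 247 CPM (0.754, 0.687 to 0.827), and more Il4, at 154 and 94.6 CPM (1.62, 1.45 to 1.82). Il13 had 56.3 and 63.8 CPM (0.882), with an interval from 0.741 to 1.05 that includes 1. Its thinned shares ran the other way, 5.46% of Il2+ against 3.92% of Il2- cells. Trdc also differed between these cells, at 78.8 and 142 CPM (0.555, 0.482 to 0.637), and its part was not tested. Il3 had 18 and 9 UMIs, a ratio of 6.95 (2.97 to 17.6), with 44.4% of the 18 in 1 of 4 cells. Of the ILC2 cytokine list 0 of the 7 measured reached 2-fold higher and 1 reached 2-fold lower, beside a background of 0.806% and 2.1%. Il2ra was lower in Il2+ cells, at 164 against 191 CPM (0.860, 0.778 to 0.95). In small intestine Ncr1+ cells the chemokine gene Cxcl2 had 1110.5 CPM in Il2+ and 486 CPM in Il2- cells (2.29, 2.10 to 2.48), Lif, a cytokine gene of the IL-6 family, 76.9 and 38.2 CPM (2.01, 1.45 to 2.75) and Tnf 187 and 137 CPM (1.37, 1.12 to 1.65), beside a background of 1.39% of genes at least 2-fold higher and 4.17% lower. Of the 14 measured genes of the IL-2 and STAT5 list, 1 (Lif) reached 2-fold higher there and 1 reached 2-fold lower. In small intestine Gata3+ cells, Il2+ cells had less Ccr6 than Il2- cells, at 4.76 against 34.5 CPM (0.138, 0.0282 to 0.411), beside a background of 1.77% of genes higher and 5.43% lower.

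Receptor transcripts for IL-2 were abundant in these cells and those for GM-CSF scarce. Il2rg had 722 CPM in the small intestine against 577 CPM in the colon, Il2rb 491 and 424 CPM and Il2ra 152 and 176 CPM. Csf2ra had 8.02 and 9.94 CPM. Csf2rb had 0 UMIs in the small intestine against 5 in the colon. Of the neighbouring genes, Il21, which lies 96799 bases from Il2, had 0 UMIs in either library, Il3 had 1 and 29 UMIs, and Adad1, which overlaps the end of Il2 by 1408 bases on the other strand, had 0.

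Over 21 groups of cells defined by tissue and marker combination (8205 genes, log2 of CPM plus 10), the genes whose level followed Csf2 most closely were Decr1 (Pearson r = 0.85), Fgl2 (0.83), Lpar6 (0.82), Taldo1 (0.81) and Frmd4b (0.81). Those closest to Il2 were Cxcl2 (0.81), Ap1s3 (0.79), Areg (0.79), Map4k5 (0.79) and Bace2 (0.77). Csf2 and Il2 correlated with each other at r = 0.56, rank 238 for Csf2 and rank 94 for Il2. The groups come from 2 libraries and share depth and free RNA within each, so these values are a description.

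The heat shock list summed to 2981 and 2987 CPM in the small intestine and 3925 and 3794 CPM in the colon, and Fos was 1276 and 1735 CPM and 1534 and 1457 CPM, Csf2+ cells first. Across tissues the list was higher in the colon, at 2985 against 3835 CPM. Antibody and other plasma cell transcripts (5 of 5 markers detected) summed to 399 CPM in Csf2+ and 11107 CPM in Csf2- cells of the small intestine, and to 1671 and 2875 CPM in the colon. Their part in the levels was not tested.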

How the data were processed

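Single cells were sequenced with the 10x Chromium 3′ v2 kit, per the labels' protocols. The deposited files hold raw UMI counts, whose rows are genes and whose columns are barcodes. The submitters' processing notes name Cell Ranger 3.0.2 and mm10. Matrices held 31053 genes and 737280 barcodes. The authors' table of chosen cells held the same counts, with 0 differing values. The rule by which cells were chosen is not given in the sources used here. All its cells were used (at least 1111 UMIs in the small intestine against 1156 in the colon).

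Levels were summed UMIs over all UMIs of the cells, with exact Poisson intervals. Ratios have exact conditional binomial intervals, shares Clopper-Pearson intervals and co-detection ratios log intervals (95%). They cover counting error only. Thinning to 1000 UMIs left out 0 cells. A limit at 0 is 3 counts. Free RNA was profiled in barcodes of 10 to 50 UMIs, and its share was taken from Igkc, Igha and Jchain. Doublets were kept: Scrublet's own threshold called 0 and 0 cells, so the 241 and 456 top-scoring cells were left out as an alternative. The ratio code was run on simulated Poisson counts. These lack the concentration of UMIs in few cells seen here, so the run checks the code and not the intervals of such genes.

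Members, lists and rules were chosen with earlier results of these data known. Partner genes were the 10 with the highest lower bound at a ratio of at least 2 and the 5 with the lowest upper bound at a ratio of at most 0.5, among genes with at least 20 UMIs. Genes of like pattern were the 5 with the highest r. A fixed set of cytokines and receptors was always read. List examples had at least 50 CPM. Other genes and Il2 or Csf2 subsets (Il1rl1, Eomes, Cd4, Trdc) were named after their values were seen. Versions were python 3.11.15, numpy 2.4.6, scipy 1.17.1, pandas 2.3.3, scanpy 1.11.5 and matplotlib 3.10.9.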

Additional observations from a re-analysis of the deposited data

Results flagged for a closer look

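Csf2 differed in opposite directions between Ncr1+ and Ncr1- cells of the 2 tissues. The log2 ratio was 0.49 in the small intestine (601 against 429 CPM) and -0.61 in the colon (195 against 298 CPM). There is 1 library per tissue, and the difference between tissues was not tested.

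Barcodes with at least 1000 UMIs that the authors did not choose as cells, 395 in the small intestine against 317 in the colon, also held these transcripts. Csf2 had 534 CPM (478 to 594) in the small intestine against 294 CPM (248 to 345) in the colon. Il2 had 27.0 CPM (15.7 to 43.3) and 59.9 CPM (40.4 to 85.6). Their median mitochondrial share was 5.41% and 5.54%, against 2.49% and 2.69% in the chosen cells.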

How the results depend on the processing

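Values here are log2 ratios, marker-positive over marker-negative cells unless stated. The main ratios were as follows. Csf2 in the small intestine had 0.49 for Ncr1, 0.45 for Gata3, -0.55 for Klrd1, -0.96 for Cd3e and -1.98 for Ccr6. Csf2 in the colon had -0.61 for Ncr1, 1.52 for Gata3, -0.89 for Klrd1, -1.50 for Cd3e and -1.77 for Ccr6. Il2 in the small intestine had 0.65 for Ncr1, 0.01 for Gata3, -0.36 for Klrd1, -1.51 for Cd3e and -1.31 for Ccr6. Il2 in the colon had -0.25 for Ncr1, 1.14 for Gata3, -0.64 for Klrd1, -1.40 for Cd3e and -1.32 for Ccr6. Small intestine over colon, Csf2 had 0.75 and Il2 -0.58, and co-detection had 0.67 in the small intestine, against 0.99 in the colon. Of the alternatives to these and to the gene counts below, 180 values stayed close, 95 moved beyond the counting interval or 1.5 times the count, and 1 reversed. Without the top-scoring Scrublet cells, Csf2 in the small intestine was 0.56 for Ncr1 and -2.26 for Ccr6. For Csf2 in the colon it was -2.18 for Ccr6 and -1.80 for Cd3e. Il2 in the colon was -2.28 for Ccr6, -1.75 for Cd3e and -1.01 for Klrd1. Without cells above the 95th percentile of UMIs, Csf2 was 0.69 small intestine over colon. In the small intestine Csf2 was -2.62 for Ccr6, -1.18 for Cd3e and -0.82 for Klrd1. For Csf2 in the colon it was -0.80 for Ncr1, -2.83 for Ccr6 and -1.69 for Cd3e. Il2 in the colon was -2.05 for Ccr6. Without cells with a T cell receptor or CD3 UMI, Csf2 was 0.60 small intestine over colon. In the small intestine Csf2 was -2.36 for Ccr6 and -0.10 for Klrd1. For Csf2 in the colon it was -0.80 for Ncr1, -2.29 for Ccr6 and 1.32 for Gata3. Il2 was -0.71 small intestine over colon. Il2 in the colon was -0.66 for Ncr1 and 0.95 for Gata3. Co-detection was 0.76 in the colon. Without the tenth of cells highest in heat shock genes, Csf2 in the small intestine was 0.57 for Ncr1. With cells thinned to 1000 UMIs, Csf2 was 0.70 small intestine over colon. In the small intestine Csf2 was 0.60 for Ncr1 and -2.36 for Ccr6. For Csf2 in the colon it was -2.61 for Ccr6 and -1.85 for Cd3e. Il2 was -0.72 small intestine over colon. Il2 in the small intestine was 0.42 for Klrd1. In the colon Il2 was -1.81 for Cd3e. Co-detection was 0.38 in the small intestine. With a marker called at 2 UMIs, Csf2 in the small intestine was 0.39 for Ncr1, -2.98 for Ccr6, 0.68 for Gata3, -1.21 for Cd3e and -1.28 for Klrd1. For Csf2 in the colon it was -0.82 for Ncr1, 1.74 for Gata3, -1.96 for Cd3e and -1.23 for Klrd1. Il2 in the small intestine was 0.87 for Ncr1 and -1.93 for Ccr6. In the colon Il2 was -2.48 for Ccr6. With cells of only that marker against cells of none, Csf2 in the small intestine was 0.70 for Ncr1, -2.61 for Ccr6, 0.70 for Gata3 and 1.34 for Klrd1. For Csf2 in the colon it was -0.32 for Ncr1, -3.0 for Ccr6, 1.16 for Gata3, -2.00 for Cd3e and -0.17 for Klrd1. Il2 in the small intestine was 0.53 for Klrd1. In the colon Il2 was 0.44 for Ncr1, 0.87 for Gata3, -1.95 for Cd3e and -0.24 for Klrd1. With free RNA subtracted, Csf2 in the colon was 1.65 for Gata3 and -1.66 for Cd3e. For Il2 in the colon it was 1.32 for Gata3 and -1.68 for Cd3e. With a median-ratio size factor, Csf2 was 0.53 small intestine over colon. Il2 was -0.80 small intestine over colon. By the ratio of thinned shares of cells, chosen after seeing the data, Csf2 was 0.35 small intestine over colon. Csf2 in the small intestine was 0.71 for Ncr1, 0.30 for Gata3 and -0.61 for Cd3e. In the colon Csf2 was -0.32 for Ncr1, 1.33 for Gata3 and -0.60 for Klrd1. For Il2 in the colon it was -1.99 for Cd3e. Over 10 bins of depth, co-detection was 0.35 in the small intestine, against 0.78 in the colon. Over groups made by the 5 markers, co-detection was 0.43 in the small intestine, against 0.67 in the colon.

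Genes past 2-fold between Csf2+ and Csf2- cells numbered 203 in small intestine Ncr1+ cells, 373 in small intestine Gata3+ cells, 483 in small intestine Cd3e+ cells, 359 in colon Ncr1+ cells, 251 in colon Gata3+ cells, 651 in colon Cd3e+ cells and 404 in colon Klrd1+ cells. With at least 50 UMIs there were 45 in small intestine Ncr1+, 108 in small intestine Gata3+, 86 in small intestine Cd3e+, 61 in colon Ncr1+, 85 in colon Gata3+, 239 in colon Cd3e+ and 84 in colon Klrd1+. Thinned, there were 372 in small intestine Ncr1+, 575 in small intestine Gata3+, 600 in colon Gata3+ and 1059 in colon Cd3e+. Genes past 2-fold between Il2+ and Il2- cells numbered 505 in small intestine Ncr1+ cells, 663 in small intestine Gata3+ cells and 303 in colon Gata3+ cells. With at least 50 UMIs there were 165 in small intestine Ncr1+, 236 in small intestine Gata3+ and 82 in colon Gata3+. Thinned, there were 1238 in small intestine Ncr1+, 1667 in small intestine Gata3+ and 1015 in colon Gata3+.

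The value that reversed, Klrd1 in the small intestine against cells of none of the 5 markers, rests on 31 cells of which 1 gave 58 of 75 Csf2 UMIs. Il2 for Klrd1 in the small intestine (thinned, and as only marker) and for Ncr1 in the colon (as only marker) also changed sign, from main values whose intervals include 1. For the other values that moved the cause was not tested. No paired analysis was possible because each tissue has 1 library, and no library can be left out. Depth limits Il2: cells with 1 UMI were 80.0% of Il2+ cells in the small intestine, against 73.4% in the colon.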
